A study of Macaca mulatta with 5 samples.

Results

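Methylated DNA peaks that lie inside the transcribed spans of long noncoding RNAs (lncRNAs) were described in rhesus monkey (Macaca mulatta) cells. A peak was taken when it lay on chromosomes 1 to 20 and overlapped by at least 1 bp the interval from start to end of any transcript in the deposited lncRNA table. That interval, introns included, is called the body. The rule took 324 of the 44266 peaks on these chromosomes in the library labelled rESC, which is 0.732% (95% exact binomial interval 0.655 to 0.816). It took 533 of 77158 in the library labelled R_NSCP1, which is 0.691% (0.634 to 0.752). The full lists held 48838 and 83528 peaks.

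The rule was applied to 1268 table entries, which gave 1228 bodies with distinct positions, 607 on the plus and 621 on the minus strand. Overlapping bodies were joined into 1041 loci. Bodies had a median length of 4194 bp and ranged from 306 to 759792 bp, and 114 were at least 50 kb long. Together they covered 18.3 Mb, or 0.668% of the 2731 Mb spanned by the 20 chromosomes. Their equal-length flanks on both sides, with every other listed body removed, covered 34.7 Mb. Flank counts given below for a single locus keep the peaks in other listed bodies, so they can include members.

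The series compared rhesus embryonic stem cells (rESC) with cells labelled R_NSCP1, with 1 MeDIP library and 1 lncRNA library of each, and its title concerns how neural fate is set in these stem cells. The labels name no allele, treatment or time, do not spell out R_NSCP1, and give embryonic stem cell as the cell type of every sample. The files carry no gene names, so the labelled cell types could not be checked against markers. The MeDIP libraries held 8690541 (rESC) and 9071243 (R_NSCP1) tags, a ratio of 1.04. Without replicates, each difference below is between 2 libraries, and all intervals cover counting error only. The depth behind the FPKM values (fragments scaled to transcript length and library size) is unknown.

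MeDIP uses an antibody against methylated cytosine to pull down sheared DNA, and a peak marks a stretch with more fragments than its surroundings. In mammalian cells, methylation at promoters often accompanies silence of the gene, whereas methylation within transcribed bodies is common in active genes. lncRNAs are transcripts without a long reading frame, and some act in embryonic stem cells and in neural differentiation.

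lncRNA bodies carried MeDIP peaks at about the density of the DNA beside them. Assigned by summit, the point of highest signal, 319 rESC peaks lay in bodies, or 1.75 per 100 kb (95% exact Poisson interval 1.56 to 1.95), which is 0.0175 per kb. The flanks held 612 rESC peaks, or 1.76 per 100 kb (1.62 to 1.91), and the rest of the chromosomes 1.62. The ratio of body to flank density was 0.992 (95% exact conditional interval 0.864 to 1.14). In R_NSCP1, 520 summits lay in bodies, or 2.85 per 100 kb (2.61 to 3.10; 0.0285 per kb), against 3.01 (2.83 to 3.20) in flanks and 2.82 elsewhere. The R_NSCP1 ratio of body to flank was 0.945 (0.849 to 1.05). Both intervals included 1, so no difference between bodies and flanks was detectable at these counts. The intervals treat peaks as independent, and their upper limits varied with the setting. In loci under 50 kb the upper limits were 1.32 in rESC and 1.29 in R_NSCP1. Body density was above flank density on 10 chromosomes and below it on 10 in each library.

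**Figure D1:**
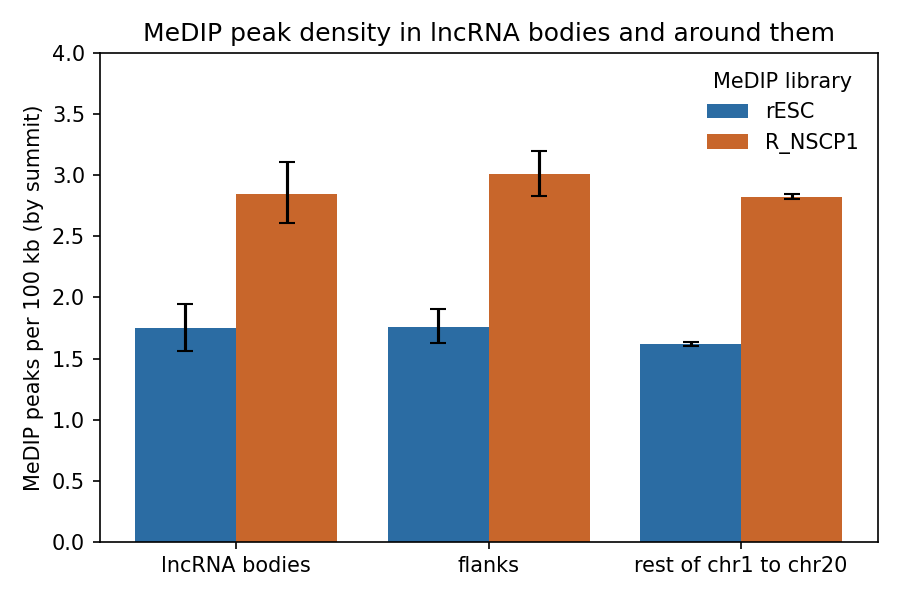
MeDIP peaks per 100 kb (vertical axis), counted by summit, in lncRNA bodies, in their equal-length flanks and in the rest of chromosomes 1 to 20, for rESC and R_NSCP1. Bars are densities of 1 library each and lines are 95% exact Poisson intervals, and in each library the 3 compartments lie close together, from 1.62 to 1.76 in rESC and from 2.82 to 3.01 in R_NSCP1.

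The body peaks were narrow and had medians of length and height near those of the peaks around them. Their median length was 296 bp in rESC (range 249 to 1393) and 277 bp in R_NSCP1 (range 236 to 1085), against 287 and 278 bp in the flanks. The median fold enrichment over local background, a value of the authors' peak caller that refers to the background of its own library, was 5.94 in rESC and 6.02 in R_NSCP1. Peaks with a −log10 q of at least 10 made up 27.3% of rESC body summits (22.5 to 32.5) and 31.9% of R_NSCP1 body summits (27.9 to 36.1). Over all peaks of the 20 chromosomes these shares were 23.6 and 29.9%, and in the flanks they were 26.5 and 32.4%. The peaks covered 108 kb of body in rESC, or 0.593% of it, and 165 kb in R_NSCP1, or 0.904%.

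Most members lay well within a body. In rESC 307 of 324 were wholly inside and 17 crossed an edge, and in R_NSCP1 504 were wholly inside and 29 crossed an edge. The smallest overlap was 38 bp in rESC and 9 bp in R_NSCP1, and 3 and 10 members overlapped a body by under 100 bp. Just outside the rule, the nearest peak stopped 5 bp from a body in rESC and 60 bp in R_NSCP1, and 6 and 3 peaks lay within 100 bp.

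With all loci counted, body and flank peaks lay near chromosome ends more often than peaks elsewhere. Within 5 Mb of an end lay 26.0% of rESC body peaks (21.3 to 31.2) and 23.7% of R_NSCP1 body peaks (20.1 to 27.5). Flank peaks gave 30.1 and 25.4%, and peaks elsewhere gave 17.7 and 17.2%. The loci on chromosomes 9 and 10 with the most body peaks both lie within 5 Mb of an end. They held 19 and 18 rESC members, where 83 rESC body peaks lay near an end. In R_NSCP1 they held 19 and 21, where 123 did. Their flanks held 69 and 24 rESC and 79 and 37 R_NSCP1 peaks. The shares without these loci, and the share of body sequence near ends, were not computed.

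R_NSCP1 had more peaks than rESC inside lncRNA bodies, and the excess was close to that of the other compartments. Members numbered 1.65 times as many in R_NSCP1 as in rESC (95% exact conditional interval 1.43 to 1.89), and there were more of them on 20 of 20 chromosomes. Peak density in the flanks and elsewhere was also higher in R_NSCP1 on each of these chromosomes. By summit the ratio was 1.63 (1.42 to 1.88) in bodies, 1.71 (1.55 to 1.89) in flanks and 1.74 (1.72 to 1.77) elsewhere. The intervals overlapped.

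Members lay in a minority of loci, by counts that are not scaled to locus length. At least 1 member lay in 184 of 1041 loci (17.7%) in rESC and in 269 (25.8%) in R_NSCP1. Members fell in 155 loci in both libraries, in 114 in R_NSCP1 alone, in 29 in rESC alone and in 743 loci in neither. R_NSCP1 had the greater number in 172 loci, rESC in 36, and 90 loci with peaks had equal numbers. R_NSCP1 peaks were also 1.71 times as many in flanks and 1.74 times as many elsewhere, so this imbalance is not particular to the loci. The 10 loci with the most members held 25% of them in rESC and 21% in R_NSCP1. The median locus was 3964 bp long, and whether members cluster beyond what locus length gives was not tested.

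Long lncRNAs held a peak far more often than short ones. The shares and numbers here are not scaled to length, and were not computed for equal-length stretches outside bodies. Of the 93 loci of at least 50 kb, 71 (76.3%) held a rESC member and 83 (89.2%) a R_NSCP1 member. Of the 305 loci under 2 kb, 17 (5.57%) and 24 (7.87%) did. The long loci held 195 of the 324 rESC members and 302 of the 533 R_NSCP1 members. They covered 11985 kb of the 18.3 Mb of body. Across the 1228 bodies, Spearman's rho between body length and peak number was 0.413 in rESC and 0.491 in R_NSCP1, as a description of bodies that share a library and in part overlap.

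Density by length ran the other way. Loci under 2 kb held 4.62 rESC summits per 100 kb (2.69 to 7.40) and 6.26 R_NSCP1 summits (3.97 to 9.39), whereas loci of at least 50 kb held 1.62 (1.40 to 1.86) and 2.5 (2.23 to 2.80). The flanks of short loci were also rich in peaks, at 2.46 and 3.42 per 100 kb, and the ratio of body to flank in short loci was 1.88 (0.909 to 3.86) in rESC and 1.83 (0.992 to 3.36) in R_NSCP1. These rest on 17 and 23 body summits, and neither interval excluded 1. In loci of at least 50 kb the ratio was 0.957 (0.802 to 1.14) in rESC and 0.867 (0.754 to 0.994) in R_NSCP1. Without the chromosome 9 locus described below, whose flanks held 79 R_NSCP1 peaks, the latter was 0.92 (0.796 to 1.06), which no longer excluded 1.

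Along the body, from the 5′ to the 3′ end by the strand of each transcript, peaks were spread evenly over most of the length. With each body counted separately, so that a peak in overlapping bodies counts more than once, 395 rESC and 624 R_NSCP1 summits were placed. The 5′ part, up to the midpoint, held 48.4% of rESC summits (43.3 to 53.4) and 47.9% of R_NSCP1 summits (43.9 to 51.9). Each body was split into 10 equal bins. The first bin, at the start of the transcript, was level with the inner 8 bins, at ratios of 1.16 (0.823 to 1.60) in rESC and 0.992 (0.745 to 1.30) in R_NSCP1.

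The last bin was denser. It held 56 rESC summits, or 2.56 per 100 kb (1.93 to 3.32), against 1.69 (1.5 to 1.89) in bins 2 to 9, a ratio of 1.51 (1.12 to 2.02). In R_NSCP1 it held 80 summits, or 3.65 per 100 kb (2.90 to 4.54), against 2.76, a ratio of 1.32 (1.03 to 1.68). The downstream flank likewise held more than the upstream flank, by 1.16-fold (1.01 to 1.33) in rESC and 1.13-fold (1.01 to 1.26) in R_NSCP1.

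In several other settings the intervals of both kinds of 3′ excess included 1, and most of the ratios were smaller. With the 1027 loci of a single strand in place of bodies, so that a peak counts once, the last bin stood at 1.22 (0.828 to 1.74) times the inner bins in rESC and 1.08 (0.794 to 1.44) in R_NSCP1. The downstream flank then stood at 1.09 (0.914 to 1.29) and 1.13 (0.993 to 1.29) times the upstream flank. Without the loci on chromosomes 9 and 10 with the most body peaks, the last bin stood at 1.24 (0.871 to 1.73) times the inner bins in rESC and 1.18 (0.896 to 1.53) in R_NSCP1, and the downstream flank at 1.05 (0.893 to 1.24) and 1.08 (0.956 to 1.22) times the upstream flank. In the 2 kb just outside either end of the 637 bodies of at least 4 kb, the R_NSCP1 density downstream was 0.913 times that upstream (0.554 to 1.5). In the last 2 kb within these bodies it was 1.44 times (1.04 to 1.94) that of the stretch between the outermost 2 kb at each end, and in rESC 1.37 times (0.901 to 2.01).

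**Figure D2:**
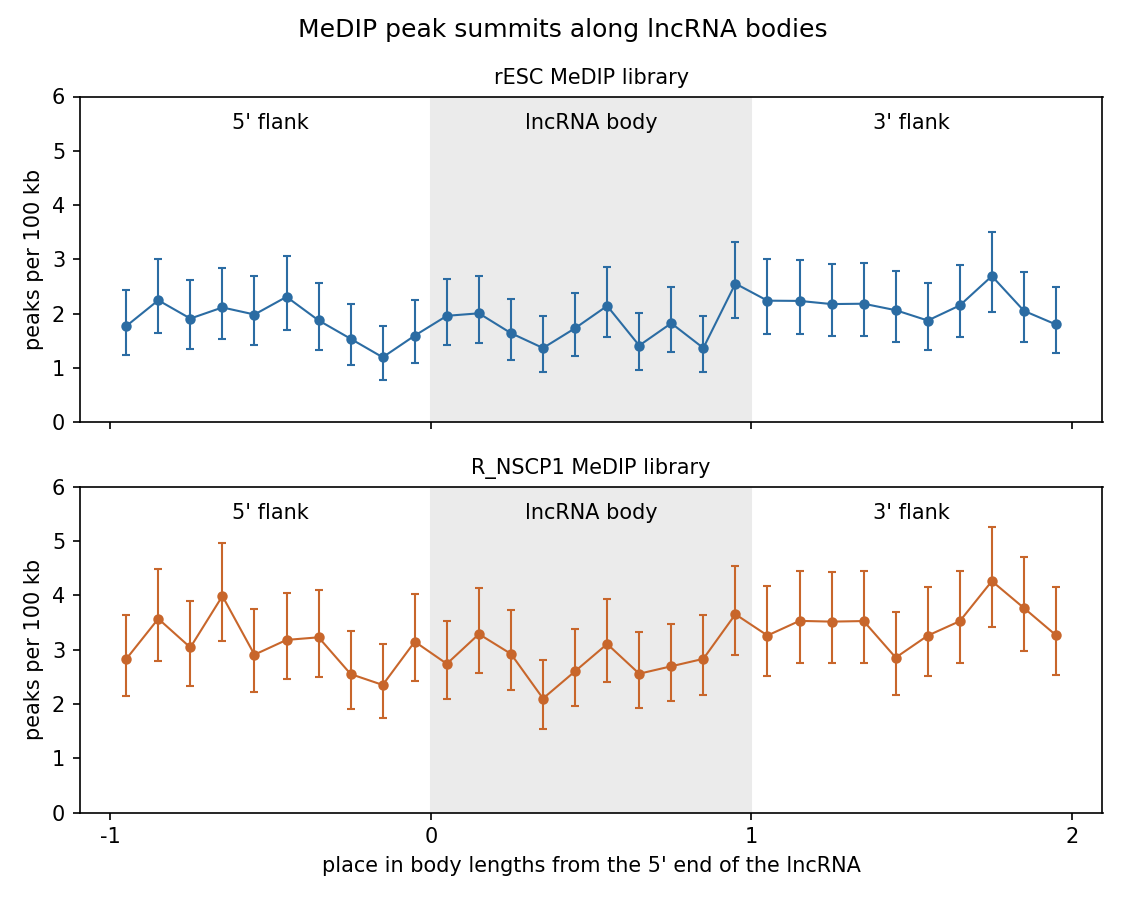
MeDIP peaks per 100 kb (vertical axis) in 10 equal bins of each of the upstream flank, the body and the downstream flank of 1228 lncRNA bodies, from 5′ to 3′ (horizontal axis), for each library, with 95% exact Poisson intervals. Within the body the last bin is the highest point in both libraries, at 2.56 in rESC and 3.65 in R_NSCP1.

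The share of members found in both libraries lay near that of all peaks in rESC and above it in R_NSCP1. Of the rESC members, 229 of 324, or 70.7% (65.4 to 75.6), overlapped a R_NSCP1 peak, where 67.5% of all rESC peaks on these chromosomes did. Of the R_NSCP1 members, 234 of 533, or 43.9% (39.6 to 48.2), overlapped a rESC peak, where 38.7% of all R_NSCP1 peaks did. By summit the R_NSCP1 share was 43.3% (39.0 to 47.7) in bodies and 39.9% (36.9 to 43.0) in flanks, and these intervals overlap. Without the loci on chromosomes 9 and 10 with the most body peaks, 41.0% of R_NSCP1 body peaks (36.6 to 45.5) were shared, and the interval included the share over all peaks. The lists left 95 rESC and 299 R_NSCP1 members with no overlapping peak in the other list.

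Shared members matched closely in position. The summits of overlapping peaks lay a median of 33 bp apart in either direction, and 190 of the 229 rESC members had the R_NSCP1 summit within 100 bp. Shared members were longer than unshared ones, with medians of 316 against 259 bp in rESC and 331 against 255 bp in R_NSCP1. They were also higher over background, at a median fold enrichment of 6.20 against 5.45 in rESC and 6.63 against 5.84 in R_NSCP1.

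Strong members were mostly shared. Of members with a −log10 q of at least 10, 89 of 91 in rESC (97.8%) and 137 of 174 in R_NSCP1 (78.7%, 71.9 to 84.6) had a partner, against 94.7 and 70.1% of all such peaks. Of members with a −log10 q under 5, 14 of 54 in rESC (25.9%, 15 to 39.7) and 15 of 82 in R_NSCP1 (18.3%) did, against 42.8 and 16.7% of all such peaks. Absence of a partner is absence from a list with a threshold, and the signal below that threshold was not analysed here.

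The local background implied by pileup and fold enrichment differed greatly between loci. It is the number of fragments that the peak caller took as the level to expect at a peak, and its median was 1.27 in rESC and 1.20 in R_NSCP1 members. A background of at least 10 fragments was found at 24 rESC members (7.41%, 4.80 to 10.8) and 27 R_NSCP1 members (5.07%, 3.36 to 7.28). By summit, such peaks made up 7.21% of body peaks, 8.50% of flank peaks and 0.630% of peaks elsewhere in rESC. The R_NSCP1 values were 5.0, 5.25 and 0.466%. The members of this kind lay in 6 lncRNA loci. Of these, the chromosome 9 locus described below held 15 such members in each library, so it weighs heavily on the body shares. Shared were 23 of the 24 rESC and 24 of the 27 R_NSCP1 members of high background. Peaks were called without a control library, so extra copies of a sequence and methylation cannot be told apart at these 6 loci. With only peaks of lower background the members shared were 68.7% in rESC and 41.5% in R_NSCP1, and the last bin stood at 1.22 (0.861 to 1.68) and 1.16 (0.888 to 1.5) times the inner bins.

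The locus with most rESC members lies near the start of chromosome 9 (418109 to 566992, 148.9 kb, 3 overlapping bodies). It held 19 members in each library, of which 18 in each were shared. Its flanks, with other listed bodies kept, held 69 rESC and 79 R_NSCP1 peaks. The local background reached 38.3 fragments in both libraries, and 15 of the 19 members in each had a background of at least 10. Its highest member in rESC spanned 446524 to 447630, with a fold enrichment of 14.8 and a −log10 q of 158.4. The R_NSCP1 partner spanned 446537 to 447621, with 15.4 and 176.0. The longest transcript of the locus had FPKM values of 1.47 (rESC) and 2.16 (R_NSCP1).

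A minus-strand lncRNA of 246.8 kb on chromosome 10 (2910381 to 3157197) held 18 rESC and 21 R_NSCP1 members, the largest R_NSCP1 number of any locus. Of these, 5 rESC and 7 R_NSCP1 members were unshared. Its background was lower, with medians of 2.15 and 2.60 fragments and no member at 10 or above. Its FPKM was 0.385 in rESC and 4.63 in R_NSCP1, a difference of 3.29 on the log2(FPKM + 0.1) scale. Its flanks held 24 rESC and 37 R_NSCP1 peaks. A second chromosome 10 lncRNA (2338092 to 2385929, plus strand, 47.8 kb) had 1 rESC and 7 R_NSCP1 members, 5 of the latter unshared, while its FPKM was 1.75 and 2.13.

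On chromosome 20 a minus-strand lncRNA of 164.6 kb (85425246 to 85589866) held 6 rESC and 14 R_NSCP1 members. All 6 rESC members were shared and 8 R_NSCP1 members were not, the highest unshared number of any body. Its FPKM, summed over 2 table entries at this position, was 2.42 in rESC and 3.41 in R_NSCP1. The flanks of this locus moved the same way, with 10 rESC and 25 R_NSCP1 peaks. A plus-strand lncRNA of 438.2 kb on chromosome 4 (21781764 to 22219915) held 7 and 11 members, of which 3 and 7 were unshared, with FPKM values of 7.81 and 14.2.

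**Figure D3:**
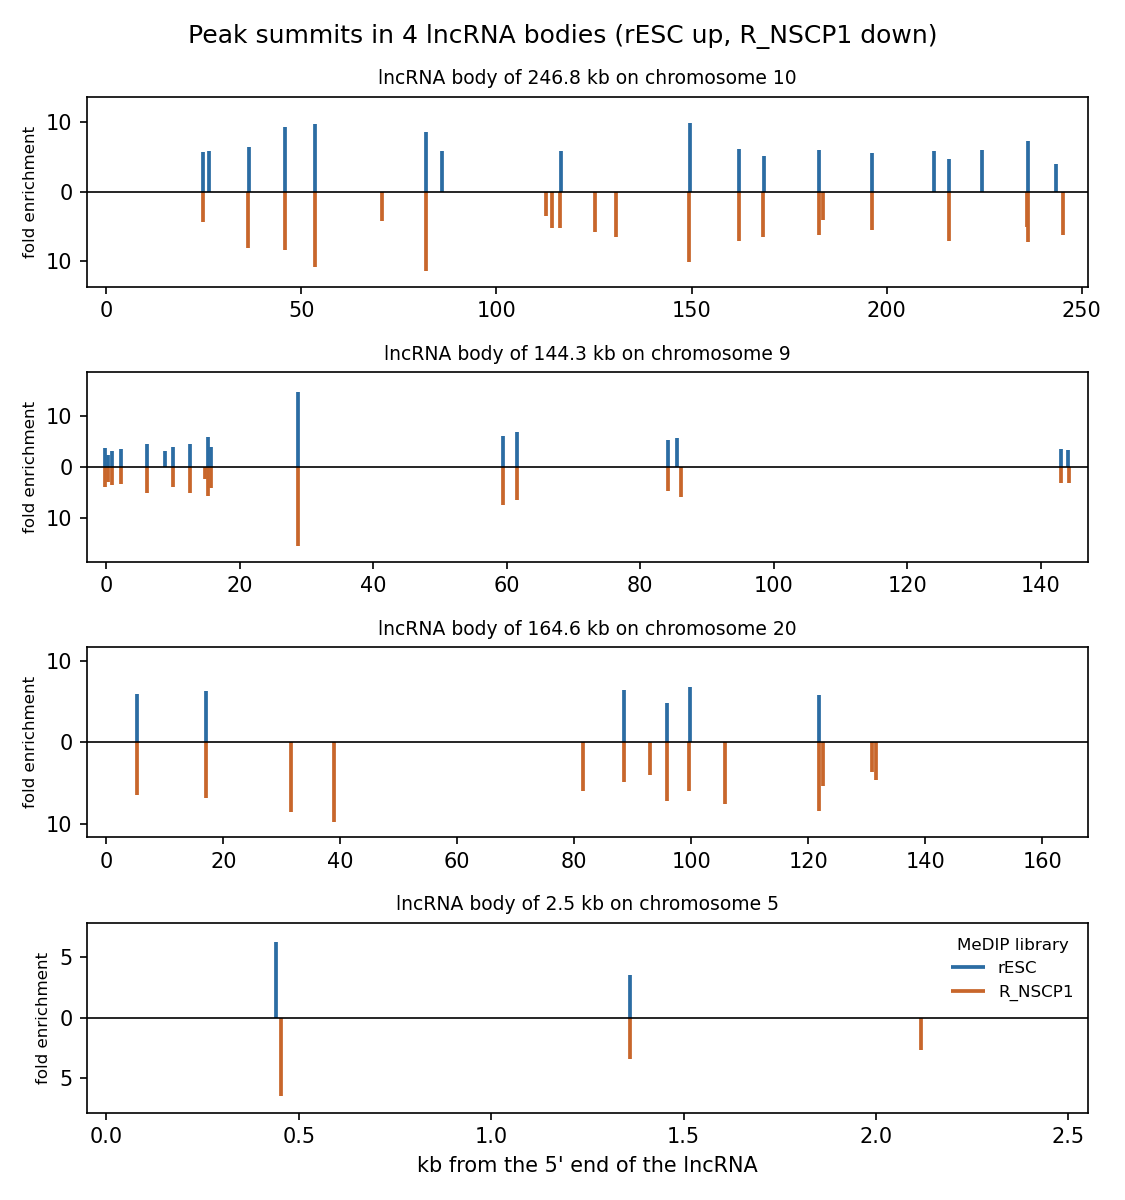
Peak summits along 4 lncRNA bodies on chromosomes 10, 9, 20 and 5, in kb from the 5′ end of the transcript (horizontal axis). Line height is the authors' fold enrichment, with rESC drawn upward and R_NSCP1 downward, and most rESC lines have a R_NSCP1 line at the same place, while the chromosome 20 body has 8 R_NSCP1 lines without a rESC partner.

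The plus-strand lncRNA of 759.8 kb on chromosome 15 (48765322 to 49525113) is the longest body. It held 7 rESC and 11 R_NSCP1 members, all 7 of the former shared, and its FPKM was 0.0311 in rESC and 4.78 in R_NSCP1. Its density of 0.921 and 1.45 members per 100 kb was below the mean of all bodies in both libraries. Its flanks, of the same length on each side, were also sparse, with 12 rESC and 19 R_NSCP1 peaks. A minus-strand lncRNA on chromosome 3 (30363737 to 30598944, 235.2 kb), listed at 0 in rESC and at 4.31 in R_NSCP1, held 4 rESC and 8 R_NSCP1 members.

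Among loci with at least 4 members over both lists, the densest was short. A minus-strand lncRNA of 2.5 kb on chromosome 5 (184049855 to 184052356) held 2 rESC and 3 R_NSCP1 members and no peak in its flanks. Every one of these members had a background above 40 fragments, and the fold enrichments were 3.52 and 6.24 in rESC and 2.69, 3.38 and 6.48 in R_NSCP1. Its FPKM was 5.51 and 4.18. The next densest of these, a minus-strand lncRNA of 6.0 kb on chromosome 6 (137377597 to 137383601), had more rESC than R_NSCP1 members, 3 against 1, and its FPKM was 9.03 in rESC and listed at 0 in R_NSCP1. The loci on chromosome 7 (53191663 to 53209238) and chromosome 1 (6854133 to 6873486) held 2 members in each library.

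The highest fold enrichment inside any lncRNA body was at the same place in both libraries. In a plus-strand lncRNA of 56.7 kb on chromosome 5 (113227608 to 113284336), the rESC peak at 113255306 to 113255876 had a fold enrichment of 19.7. The R_NSCP1 peak at 113255330 to 113255866 had 21.1, and both summits lay 49.4% of the way along the body. A second pair in the same body stood at 13.1 and 15.2. The FPKM of this lncRNA was 1.72 in rESC and 1.38 in R_NSCP1.

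The longest rESC member, of 1393 bp, lay on chromosome 2 (109336135 to 109337527) in a minus-strand lncRNA of only 1.68 kb, with a R_NSCP1 partner of 1020 bp. The FPKM of that lncRNA was 4.66 in rESC and 1.26 in R_NSCP1, and the local background was 11.1 and 10.8 fragments. A long pair on chromosome 7, of 1068 and 953 bp, lay 72.0 and 72.7% along a lncRNA of 69.4 kb (49524309 to 49593668) whose rESC FPKM was 17.6. On chromosome 20, a R_NSCP1 peak at 70057044 to 70057494 had a fold enrichment of 15.3 and its rESC partner 7.12, each over its own background.

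The level of a lncRNA bore little relation to the density of peaks in its body. Over 1228 bodies, Spearman's rho between FPKM and peaks per kb in the same cell type was 0.0439 in rESC and −0.0123 in R_NSCP1. Bodies with a peak had a median FPKM of 2.44 in rESC (218 bodies) against 2.19 without (1010 bodies). In R_NSCP1 the medians were 2.52 (327 bodies) and 2.5 (901 bodies).

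In each class of FPKM, the interval of the ratio of body to flank density included 1 for peaks of the same cell type. rESC bodies with an FPKM under 0.1 held 0.999 peaks per 100 kb (0.729 to 1.34), the lowest of the rESC classes, and their flanks also held the fewest, 1.23. Bodies at 0.1 to 1 and at 1 to 10 held 2.06 and 1.99, with 1.89 and 1.90 in the flanks. The 136 bodies at 10 or more held 1.34 (0.907 to 1.90) against 1.92 in their flanks, a ratio of 0.694 (0.444 to 1.06). R_NSCP1 peaks in the same 136 bodies, the lncRNAs abundant in rESC, gave a ratio of 0.666 (0.471 to 0.928), the only one of 16 ratios by class whose interval excluded 1. In R_NSCP1 by its own FPKM, the 4 classes from lowest to highest held 3.38, 2.73, 2.88 and 2.48 peaks per 100 kb, with overlapping intervals, and ratios to the flanks of 1.28, 1.19, 0.904 and 0.914.

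**Figure D4:**
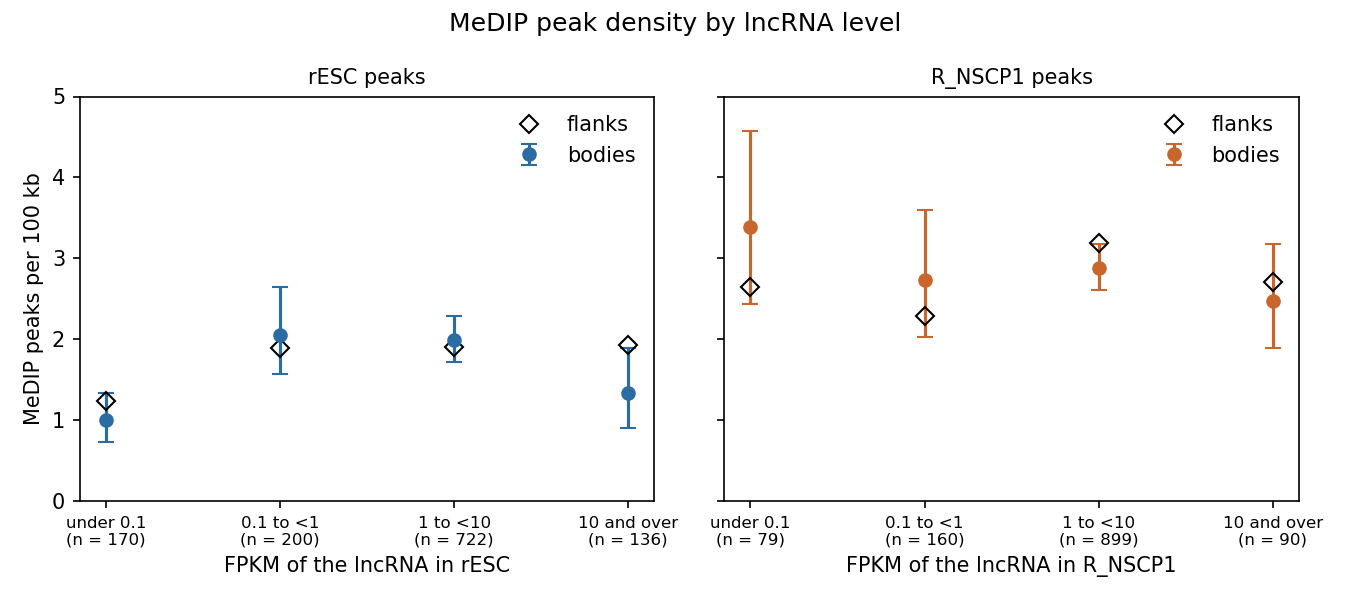
MeDIP peaks per 100 kb (vertical axis) in lncRNA bodies and in their flanks, by class of FPKM in the same cell type (horizontal axis, with the number of bodies). Lines are 95% exact Poisson intervals and are drawn for bodies only. In rESC the class under 0.1 is lowest in bodies (0.999) and in flanks (1.23), and body and flank values lie near each other in most classes.

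Bodies with a rESC peak had the higher median rESC level in each class of length, but the quartiles overlapped widely. In bodies of 10 to 50 kb the medians were 2.71 (quartiles 0.703 and 6.15) against 2.12 (0.701 and 6.26). In bodies of at least 50 kb they were 2.21 (0.269 and 4.98) against 1.60 (0.337 and 6.21, 26 bodies). Of bodies under 10 kb, the 72 with a rESC peak had a median FPKM of 3.27 and 2 (2.78%) listed at 0, while the 825 without had 2.21 and 91 (11%) listed at 0. These 72 were also longer, with a median of 3712 against 2718 bp. In R_NSCP1 the 126 short bodies with a peak had a median of 2.20, and the 771 without 2.47. The R_NSCP1 medians with and without a peak were 2.43 and 2.83 in bodies of 10 to 50 kb. In bodies of at least 50 kb they were 3.38 and 2.96, so the direction was mixed. Whether the contrasts differ between the libraries was not tested.

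Peaks present in 1 library and absent from the other did not go with a uniform direction of the lncRNA. Among the 1226 bodies with an FPKM of at least 0.1 in either library, 36.0% were at least 2-fold higher in R_NSCP1 and 29.9% at least 2-fold higher in rESC, on the log2(FPKM + 0.1) scale. Of 141 bodies with R_NSCP1 peaks alone, 51 (36.2%) were higher in R_NSCP1 and 39 (27.7%) higher in rESC, with a median difference of 0.35. Of 185 bodies with peaks in both libraries, 67 (36.2%) and 54 (29.2%) were, with a median of 0.27. The 33 bodies with rESC peaks alone gave 12 (36.4%) and 11 (33.3%), with a median of 0.04, and the 867 with no peak gave 311 (35.9%) and 263 (30.3%), with a median of 0.10. All 4 classes lay near the shares over all bodies. The 114 bodies of at least 50 kb had a median of 0.74 (95% interval of the median −0.07 to 1.64) and the 1112 shorter ones 0.11 (−0.06 to 0.30), intervals that overlap.

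Grouped by the direction of the lncRNA, R_NSCP1 had more body peaks than rESC in each class, at ratios with overlapping intervals. In the 441 bodies higher in R_NSCP1 the peaks numbered 132 in rESC and 220 in R_NSCP1, giving 1.67 times as many (1.34 to 2.08). In the 367 bodies higher in rESC there were 80 and 131, a ratio of 1.64 (1.23 to 2.19). In the 418 within 2-fold there were 128 and 201, a ratio of 1.57 (1.25 to 1.98). The flanks gave 1.81, 1.69 and 1.62 in the same order.

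**Figure D5:**
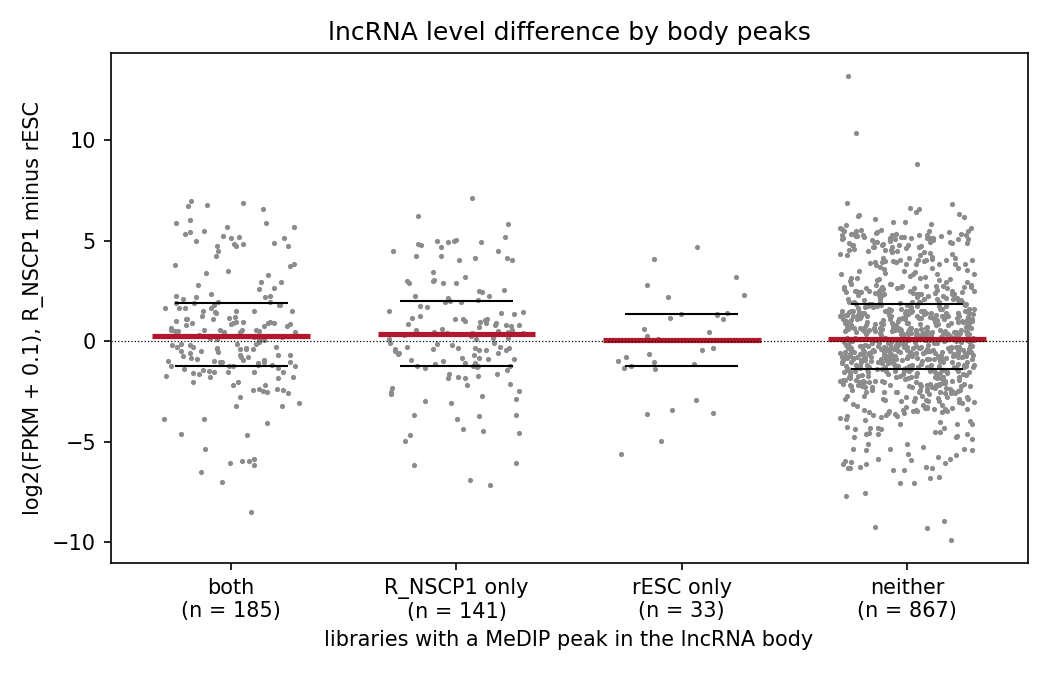
Difference in lncRNA level, log2(FPKM + 0.1) in R_NSCP1 less that in rESC, for bodies with MeDIP peaks in both libraries, in R_NSCP1 alone, in rESC alone or in neither. Points are bodies, thick lines are medians and thin lines are quartiles, and the 4 classes overlap widely, with medians between 0.04 and 0.35.

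Single lncRNAs with peaks in 1 library lay at both ends of the level differences. The plus-strand lncRNA at 90298537 to 90333373 on chromosome 9 (34.8 kb) had an rESC FPKM of 12 and a listed 0 in R_NSCP1, and held 4 R_NSCP1 members and no rESC member. Its flanks moved the same way, with 1 rESC and 4 R_NSCP1 peaks. The level of a chromosome 6 lncRNA (85073518 to 85117784, plus strand) went the other way, from a listed 0 to 13.9, and its body held 1 R_NSCP1 member. The chromosome 14 lncRNA at 123052890 to 123065846 rose from 0.204 to 9.97 and the one at 52836578 to 52842171 stood at a listed 0 and 7.30, each with 1 R_NSCP1 member. The 5 largest differences towards R_NSCP1 in such bodies came with R_NSCP1 peaks alone, as did 4 of the 5 largest towards rESC. R_NSCP1 peaks alone were also the usual case in bodies with peaks in 1 library, in 141 of 174 (81%). The remaining body, on chromosome 3 (111832516 to 111894801, plus strand, 62.3 kb), had 1 rESC member, with FPKM values of 4.70 (rESC) and 2.58e-05 (R_NSCP1).

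Bodies with most unshared rESC members held few of them. A minus-strand lncRNA of 159.2 kb on chromosome 13 (110514294 to 110673471) had 4 members in each library, 3 of each unshared, with FPKM values of 15.1 (rESC) and 6.35 (R_NSCP1). A plus-strand lncRNA of 12.8 kb on chromosome 1 (192090539 to 192103371) had 2 rESC members, both unshared, and no R_NSCP1 member, and its level went from 3.88 to 8.92.

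Overlapping transcripts can share members and still differ in level in opposite directions. On chromosome 16, the transcript from 58906797 to 59051275 was listed at 7.01 FPKM in rESC and at 0 in R_NSCP1. An overlapping transcript from 58906785 to 59029062 had 0.986 and 3.55. Each body held 2 R_NSCP1 members and no rESC member.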

How the data were processed

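Members and lists were chosen with earlier results of these data known. Per the labels' protocols, sheared genomic DNA was immunoprecipitated with a methylated-DNA kit, and rRNA-depleted RNA was made into strand-keeping libraries. BWA 0.7.7, TopHat2 2.0.11 and MACS2 are named in the submitters' processing notes. Peaks were called per library with MACS 2.1.0.20150731 at a q cutoff of 0.01 and without a control file, per the file headers, and the mixed input was not analysed here. The deposited pileup signal is a fragment number, the deposited fold enrichment is a ratio to local background within the library, and the deposited −log10 p and −log10 q values refer to that background. The FPKM values are the authors' own, as deposited, and the p-value column of the authors' table was not used. No build was named (not given in the sources used here), and a build shared by the files was assumed. No genome of that build was used, so no sequence or gene annotation is given.

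Bodies were distinct positions, with the FPKM of entries at one position summed. Flanks had the length of the locus on each side, cut at chromosome ends. Other listed bodies were removed from them, except in the flank counts of single loci. Peaks were assigned to body, flank or rest by summit, and peaks of the other list that shared 1 bp or more made a peak shared. The local background was taken as (pileup + 1)/fold enrichment − 1. Intervals are 95% exact binomial, Poisson or conditional binomial intervals, which treat peaks as independent. Named items were the 5 bodies with most members (1 per locus), the 5 loci densest in members among those with at least 4, the 5 highest and 5 longest members of each list, the 5 largest level differences each way in bodies with peaks in 1 library (FPKM of at least 1 in the higher), and the 5 bodies with most unshared members of each library. The main steps were tested on simulated data. Computation used scipy 1.17.1, pandas 2.3.3, numpy 2.4.6 and matplotlib 3.10.9 under Python 3.11.15.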

Additional observations from a re-analysis of the deposited data

Results flagged for a closer look

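Peaks also lay inside lncRNA bodies outside chromosomes 1 to 20, which the comparisons above do not use. Whether they are more or fewer than those bodies' share of the sequence was not tested. On chromosome X, 30 rESC and 47 R_NSCP1 peaks overlapped a body, which is 1.66% of 1807 and 1.72% of 2731 peaks there. On unplaced scaffolds, 8 rESC and 20 R_NSCP1 peaks did, which is 0.290% of 2758 and 0.551% of 3631.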

How the results depend on the processing

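Of 144 alternatives over 23 results, 127 stayed within the counting interval or the stated range, 16 moved and 1 reversed. Of the 127, 11 gave exactly the reported value, some because the setting removed nothing from that result, and these say nothing about stability. Chosen after seeing the data were the settings without the chromosome 9 locus or the chromosome 9 and 10 loci, those with lower local background, several without chromosome ends, and all for loci under 2 kb. The reversal was the ratio of downstream to upstream flank in R_NSCP1, 0.913 in windows of 2 kb. Once the −log10 q had to reach 10, members numbered 91 in rESC and 174 in R_NSCP1, a ratio of 1.91. There, 97.8% and 78.7% of members were shared, the last bin stood at 2.45 and 1.74 times the inner bins, the 5′ part of rESC held 53.9%, and the rESC ratio of body to flank in loci under 2 kb was 4.64 (1.06 to 27.8). That ratio was 1.17 (0.601 to 2.19) with any overlap of 1 bp counted and 1.46 (0.605 to 3.40) without chromosome ends. In loci under 50 kb, the R_NSCP1 ratio of body to flank was 1.09. With lists cut to equal length, 55.2% of rESC and 59.8% of R_NSCP1 members were shared. For the top quartile of FPKM in rESC, the ratio of body to flank was 1.07, where an FPKM of at least 10 gave 0.694. In bodies of at least 50 kb the median level difference was 0.85 with peaks in both libraries, −2.90 with rESC peaks alone (5 bodies) and 1.20 with none (8 bodies). The causes were not tested, apart from the smaller numbers these settings leave. No paired analysis was possible because each cell type has 1 library per assay. Small counts limit the short loci, with 17 and 23 summits.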
